A study of Mus musculus with 9 samples.

Results

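The Steap metalloreductases and the genes of cellular iron handling were followed through a mouse prostate cancer line and its recurrent derivatives. The set holds 10 genes of the 22180 measured: Steap1, Steap2, Steap3, Steap4, Tfrc, Fth1, Slc40a1, Cp, Hmox1 and Aco1, each read by 1 probe set of an Affymetrix Mouse Gene 2.0 ST array. The genes were chosen by their function and by a high value of Steap4 in recurrent lines against the parental line seen earlier in these same data. Their differences from the parental line are therefore given as a description, with no test, and support nothing by themselves.

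Total RNA was taken from 3 lines from mice given AZD1208, an inhibitor of the PIM kinases, from 3 lines from mice given vehicle, and from the parental MYCCaP line. The 6 lines of the AZD1208 and vehicle groups came from tumours that had recurred in castrated mice and were grown without dihydrotestosterone (DHT), an androgen; they are called recurrent lines here and are numbered by the replicate in their labels. The parental line was grown with DHT, and its 3 arrays are technical replicates, counted as 1 sample. All groups share the MYCCaP background, a line from a prostate tumour of a mouse with a MYC transgene, so growth in a castrated host and the absence of DHT cannot be told apart in the comparison with the parental line. The sources used here give neither the age and strain of the host mice nor whether each line came from its own mouse.

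Iron enters most cells bound to transferrin, through the transferrin receptor encoded by Tfrc. Inside endosomes ferric iron is reduced to ferrous iron by metalloreductases of the Steap family, which pass electrons from NADPH to iron and copper; they were named as transmembrane epithelial antigens of the prostate. Spare iron is stored in ferritin, leaves the cell through ferroportin (Slc40a1) and is oxidised again by the copper protein ceruloplasmin (Cp). Haem oxygenase (Hmox1) frees iron from haem, and Aco1 encodes iron regulatory protein 1, which controls ferritin and Tfrc messages when iron is scarce.

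Steap4 and Cp were the members that differed most from the parental line, and Steap1 is a gene of the same family that did not share their direction; the 250 bases before an annotated start of each are shown for that contrast, 5′ to 3′. They come from RefSeq (GRCm38.p6), whose promoter table matched 8 of the 10 members; Slc40a1 and Hmox1 were not matched. Steap4 is at chr5:7960222-7960471 (plus strand), Cp at chr3:19956999-19957248 (plus strand, the downstream of its 2 listed starts) and Steap1 at chr5:5749318-5749567 (minus strand). Capitals mark matches, on either strand, to the letters TTCNNNGAA (STAT factors), TTGCNNAA (C/EBP factors) or GGGNNTTCC (NF-kB).
Steap4: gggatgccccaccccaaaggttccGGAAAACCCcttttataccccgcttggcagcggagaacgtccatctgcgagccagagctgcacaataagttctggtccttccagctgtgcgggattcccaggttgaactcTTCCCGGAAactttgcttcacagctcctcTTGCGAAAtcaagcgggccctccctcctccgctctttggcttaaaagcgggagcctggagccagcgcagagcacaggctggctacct
Cp: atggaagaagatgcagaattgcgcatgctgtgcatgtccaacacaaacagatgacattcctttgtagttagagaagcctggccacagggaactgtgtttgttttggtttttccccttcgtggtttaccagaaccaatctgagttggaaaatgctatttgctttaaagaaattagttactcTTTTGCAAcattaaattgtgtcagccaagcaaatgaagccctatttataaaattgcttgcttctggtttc
Steap1: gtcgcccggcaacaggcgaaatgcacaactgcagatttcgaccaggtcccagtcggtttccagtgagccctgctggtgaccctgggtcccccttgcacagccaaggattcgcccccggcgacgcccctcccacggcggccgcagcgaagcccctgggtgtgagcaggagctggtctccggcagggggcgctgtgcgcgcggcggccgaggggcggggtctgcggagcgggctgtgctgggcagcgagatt

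The Steap4 window held 1 match to each of these 3 motifs, at 116 (STAT), 87 (C/EBP) and 226 (NF-kB) bases before the start. The Cp window held 1 C/EBP match at 70 bases, and the Steap1 window held none. The window of the other Cp start, not shown, held none of these 3 motifs, so the Cp match depends on the start chosen. Of 32851 RefSeq windows of the same length, 7.02% held the STAT letters, 9.56% the C/EBP letters and 4.98% the NF-kB letters. CACGTG (E-box, 6.02% of windows), TGACNNNGC (antioxidant response element, 10.2%) and AGAACA (androgen response half-site, 16.1%) were also searched on both strands, and none of these 3 was in the windows shown. Among the other members with a window, Steap2 held a STAT and an antioxidant match in separate windows, Steap3 and Fth1 held C/EBP matches, Aco1 and the other Cp window held the androgen half-site, and Tfrc held none of the 6 motifs. No matches of different motifs overlapped, and a match is a run of letters and not a binding site.

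The values are log2 intensities as deposited, so a difference of 1 is a doubling of signal, and no value of a probe set is set against that of another. The technical SD of a gene between the parental arrays had a median of 0.09, against 0.23 between the 6 recurrent lines. AZD1208 3 stood apart: its interquartile range was 2.87, against 2.98 to 3.12 on the other arrays, and its quality weight of 0.34 was the lowest. The weights of AZD1208 2 (0.58) and Vehicle 1 (0.63) came next. Such a weight reflects departure from the group mean, so a poor array and a line that differs cannot be told apart by it. On the first principal component, which held 49.8% of the variance, AZD1208 3 (-17.8) and Vehicle 3 (-8.39) lay nearest to the parental arrays (-31.7 to -23.3), and AZD1208 2 (44.9) and Vehicle 1 (38.8) furthest. Of the 6 luminal epithelial markers, Krt8 and Cd24a had values of 8.24 to 10.44 and 10.59 to 11.71 over all 9 arrays. Krt18 lay at 6.47 to 7.34, Cdh1 at 6.45 to 7.14 and Krt19 at 6.59 to 8.32. Epcam lay at 4.51 to 5.08, among the dimmest 30% of genes.

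Steap4 had by far the highest recurrent values relative to the parental line in the set. Its log2 intensity was 12.30, 12.00 and 10.33 in AZD1208 lines 1 to 3, 12.64, 11.23 and 10.67 in vehicle lines 1 to 3, and 8.36, 8.49 and 8.57 on the parental arrays. All 6 lines lay above every parental array, with Vehicle 1 highest and AZD1208 3 lowest, and the recurrent groups overlapped. The lines averaged 11.53 ± 0.93 (SD, n = 6) against a parental mean of 8.47, which is 8.32-fold (difference in log2 intensity 3.06, SE 0.85), and 99.9% of the genes tested had a smaller absolute difference. In human prostate cells STEAP4 is known as an androgen-induced gene, and in mouse fat tissue as one induced by tumour necrosis factor. Here its values were higher in the lines grown without DHT. These lines also came from castrated hosts, which cannot be told apart from the absence of DHT, and no cause was tested.

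The lines differed among themselves as well. In Steap4 each step between neighbours in the order Vehicle 1, AZD1208 1, AZD1208 2, Vehicle 2, Vehicle 3, AZD1208 3 was at least 0.30, above the technical SD of 0.11, and the widest, 0.78, lay between AZD1208 2 and Vehicle 2. The span from the lowest to the highest line was 2.31. The difference from the parental line was 3.83, 3.53 and 1.86 in AZD1208 lines 1 to 3 and 4.17, 2.75 and 2.19 in vehicle lines 1 to 3. The smallest differences thus stood in the same lines that lay nearest to the parental arrays on the first principal component, AZD1208 3 and Vehicle 3. Without AZD1208 3 the mean difference was 3.36, and without Vehicle 1 it was 2.77.

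**Figure D1:**
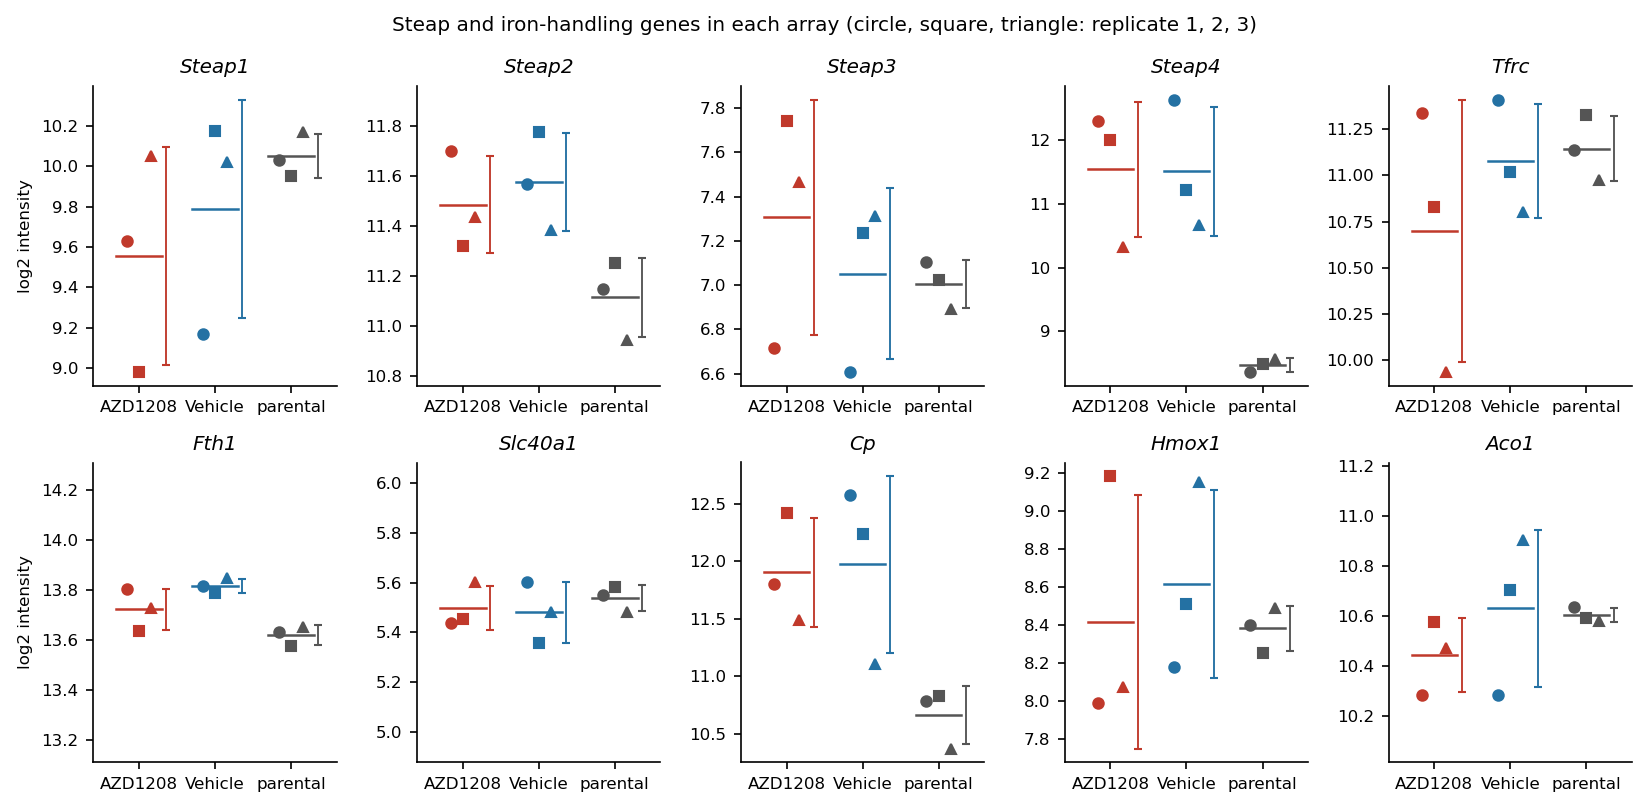
Log2 intensity (y axis, a separate range for each gene) of the 10 genes in AZD1208 lines, vehicle lines and parental arrays; points are arrays, the symbol gives the replicate, horizontal lines are means and vertical bars the SD of 3 (technical for the parental line). Steap4 lay between 10.33 and 12.64 in all 6 recurrent lines, above the highest parental array at 8.57, while Slc40a1 lay between 5.36 and 5.60 in the lines.

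Steap2, another metalloreductase of the family, was also above the parental arrays in every line, by a smaller margin. In AZD1208 2 (11.32) and Vehicle 3 (11.39) the margin over the highest parental array (11.25) was under the technical SD of 0.16. Its values were 11.70, 11.32 and 11.44 in AZD1208 lines and 11.57, 11.78 and 11.39 in vehicle lines, against 11.15, 11.25 and 10.94 on the parental arrays. The mean difference from the parental line was 0.42 (SE 0.23; 1.34-fold), and all 5 steps between neighbouring lines were smaller than the technical SD of 0.16, so neighbours in the order could not be told apart, while the span from AZD1208 2 to Vehicle 2 was 0.46.

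Steap1, which lacks the NADPH-binding domain of its relatives, ran the other way in part of the lines. It was at 9.63, 8.98 and 10.05 in AZD1208 lines and 9.17, 10.17 and 10.02 in vehicle lines, and at 10.03, 9.95 and 10.17 on the parental arrays. AZD1208 1, AZD1208 2 and Vehicle 1 lay below every parental array, whereas AZD1208 3 and Vehicle 3 lay within their range and Vehicle 2 just above it (mean difference from the parental line -0.38, SE 0.46). The 3 lines low in Steap1 were the 3 highest in Steap4. In RefSeq, Steap1 and Steap2 are direct neighbours on chromosome 5, with 0 protein-coding genes between them, and 3 lie between Steap1 and Steap4.

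Steap3, the endosomal ferrireductase of red cell precursors, split the lines by a different grouping. Its values were 6.71, 7.74 and 7.47 in AZD1208 lines, 6.61, 7.24 and 7.31 in vehicle lines, and 7.10, 7.02 and 6.89 on the parental arrays. AZD1208 1 and Vehicle 1 lay below every parental array and the other 4 lines above, with a gap of 0.52 between Vehicle 2 and AZD1208 1 against a technical SD of 0.11. The mean difference from the parental line was 0.17 (SE 0.41).

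Tfrc, which brings transferrin-bound iron into the cell, varied between lines more than it differed from the parental line. It was at 11.34, 10.83 and 9.93 in AZD1208 lines, 11.41, 11.02 and 10.80 in vehicle lines, and 11.14, 11.33 and 10.97 on the parental arrays. AZD1208 3 lay 0.87 below the next line, Vehicle 3, and the 2 highest lines, Vehicle 1 and AZD1208 1, lay just above the parental arrays. The mean difference from the parental line was -0.26 (SE 0.47) with all lines and -0.06 without AZD1208 3.

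Fth1, the heavy chain of ferritin and its ferroxidase, varied least from line to line in the set. Its values were 13.80, 13.64 and 13.73 in AZD1208 lines, 13.82, 13.79 and 13.85 in vehicle lines, and 13.63, 13.57 and 13.65 on the parental arrays. All lines except AZD1208 2 lay above every parental array, with a mean difference of 0.15 (SE 0.18), and 2.42% of all genes tested had a smaller SD between lines than its 0.08. These values lay near the top of the scale, where the highest value of any probe set was 14.4.

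Slc40a1, the iron exporter ferroportin, was dim throughout. Its values were 5.44, 5.45 and 5.60 in AZD1208 lines, 5.60, 5.36 and 5.48 in vehicle lines, and 5.55, 5.58 and 5.48 on the parental arrays, below the limit of 5.81 under which genes were left out of the fit. The files hold no detection calls, so whether it was expressed cannot be said, and a difference in it would be understated.

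Cp, the ferroxidase that works beside ferroportin, was the other member with clearly higher recurrent values. It was at 11.80, 12.42 and 11.49 in AZD1208 lines and 12.57, 12.24 and 11.11 in vehicle lines, against 10.79, 10.83 and 10.37 on the parental arrays. Every line lay above every parental array, Vehicle 3 by the least and Vehicle 1 by the most. The lines averaged 11.94 ± 0.57 (SD, n = 6) against a parental mean of 10.66, which is 2.42-fold (difference in log2 intensity 1.28, SE 0.54). Its technical SD of 0.25 was the largest in the set, and the steps between Vehicle 1, AZD1208 2 and Vehicle 2 were smaller than that.

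Hmox1, the stress-induced haem oxygenase, lay on both sides of the parental value. It was at 7.99, 9.19 and 8.07 in AZD1208 lines, 8.18, 8.51 and 9.16 in vehicle lines, and 8.40, 8.25 and 8.49 on the parental arrays. AZD1208 2 and Vehicle 3 stood 0.64 or more above the other lines, and 3 lines lay below every parental array (mean difference from the parental line 0.13, SE 0.50, and -0.06 without AZD1208 2).

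Aco1 was at 10.28, 10.57 and 10.47 in AZD1208 lines, 10.28, 10.70 and 10.90 in vehicle lines, and 10.64, 10.59 and 10.58 on the parental arrays. AZD1208 1 and Vehicle 1 were again lowest, as in Steap3, and all AZD1208 lines lay below the parental arrays while Vehicle 2 and Vehicle 3 lay above. AZD1208 2 was at 10.574, against 10.580 on the lowest parental array, a margin under the technical SD of 0.03. The mean difference from the parental line was -0.07 (SE 0.26).

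Counted over the set, 3 of 10 genes (Steap2, Steap4 and Cp) had all 6 lines above every parental array and 0 had all 6 below; over the 15526 genes tested the shares were 6.94% above and 5.06% below. For Steap2, AZD1208 2 and Vehicle 3 lay above by less than the technical SD. Nothing is read from these counts, since the comparison helped to choose the set. As background over the whole array, 0% of the 15526 genes passed an adjusted p of 0.05 against the parental line, for the mean of both recurrent groups or for either group alone (limma with Benjamini-Hochberg adjustment; 429 genes had an unadjusted p under 0.05 for the mean of both groups). The 429 genes are a smaller share of the genes tested than the 0.05 that would pass if no gene differed. The median difference of the tested members was 0.15, and that of all genes tested -0.02. Steap4, Tfrc and Cp shared the same 4 highest lines, AZD1208 1, AZD1208 2, Vehicle 1 and Vehicle 2, with AZD1208 3 and Vehicle 3 lowest in all 3 genes. In Tfrc, however, AZD1208 2 lay only 0.03 above Vehicle 3, under its technical SD of 0.18, so these lines could not be told apart. AZD1208 3 and Vehicle 3 were also the lines nearest to the parental arrays on the first principal component. How many of all genes share this grouping was not counted.

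**Figure D2:**
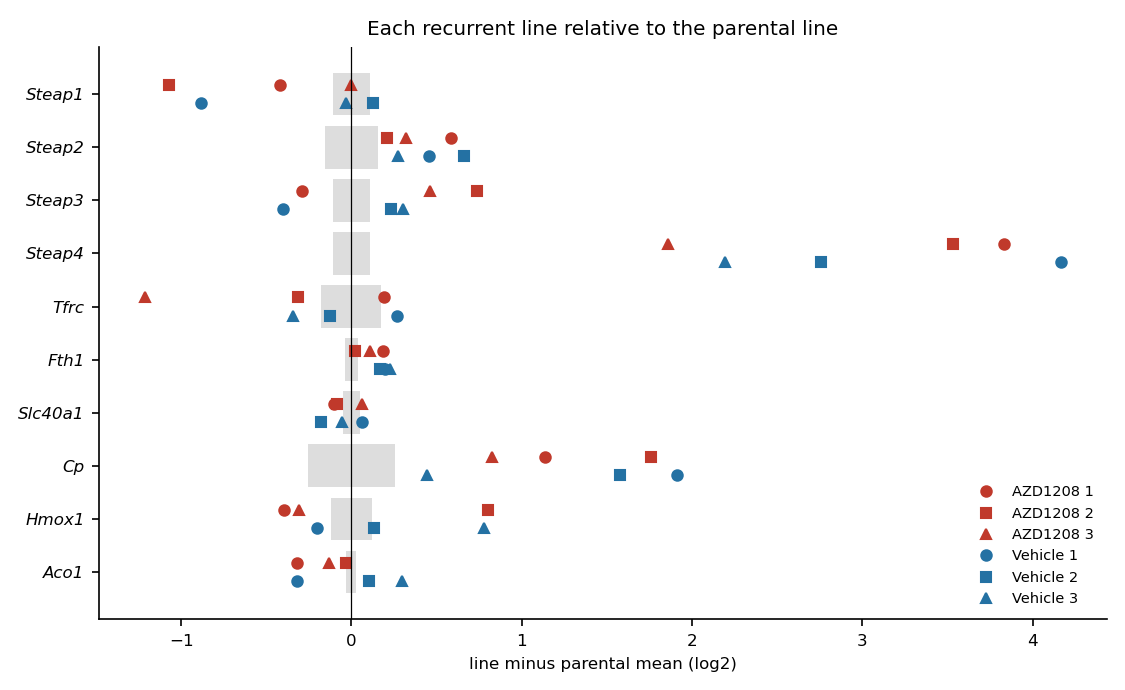
Each recurrent line minus the parental mean (x axis, log2) for the 10 genes (y axis); symbols give the replicate, the upper row of each gene the AZD1208 lines and the lower row the vehicle lines, and grey bars span the parental mean plus and minus the technical SD. Steap4 ran from 1.86 in AZD1208 3 to 4.17 in Vehicle 1, and Cp from 0.44 in Vehicle 3 to 1.91 in Vehicle 1.

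The comparison of AZD1208 with vehicle lines asked whether lines recurring under PIM inhibition differ from lines recurring under vehicle. No member differed beyond the spread between lines: 0 of 9 tested members passed, as did 0% of 15526 genes (limma, adjusted p = 1 for each member; 81 genes had an unadjusted p under 0.05). The 81 genes are likewise a smaller share than the 0.05 that would pass if no gene differed, and the reason was not tested. Groups overlapped for all 10 members, and 3.38% of all genes tested did not overlap. Values were higher in AZD1208 lines for 3 members and lower for 7, with a median of -0.09 over the tested members and -0.02 over all genes.

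Steap4 averaged 11.54 ± 1.06 over AZD1208 lines, against 11.51 ± 1.02 over vehicle lines (SD, n = 3 each), a log2 difference of 0.03 (SE 0.64) with a 95% interval of -1.46 to 1.53. That interval holds more than a doubling in either direction, so a difference of that size was not detectable with 3 lines a group. Steap2 differed by -0.09 (SE 0.18), with the much narrower interval of -0.50 to 0.32. Steap1 differed by -0.23 (SE 0.35), and by 0.052 without AZD1208 2. Steap3 differed by 0.26 (SE 0.31), and by 0.033 without Vehicle 1, 0.038 without AZD1208 2 and 0.55 without AZD1208 1.

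Tfrc had the largest absolute difference of the members, averaging 10.70 ± 0.71 over AZD1208 lines, against 11.08 ± 0.31 over vehicle lines (SD, n = 3 each; -0.38, SE 0.35). AZD1208 3 decided it: without that line the difference was 0.0061. Fth1 differed by -0.09 (SE 0.14, interval -0.41 to 0.23), and Aco1 by -0.19 (SE 0.20, interval -0.65 to 0.28). Cp differed by -0.07 (SE 0.41), and that was 0.23 without Vehicle 1 and -0.50 without Vehicle 3. Hmox1 differed by -0.20 (SE 0.38), and by -0.59 without AZD1208 2. For 8 of the 10 members the sign turned under some alternative processing or without some line; Fth1 and Aco1 were the exceptions.

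**Figure D3:**
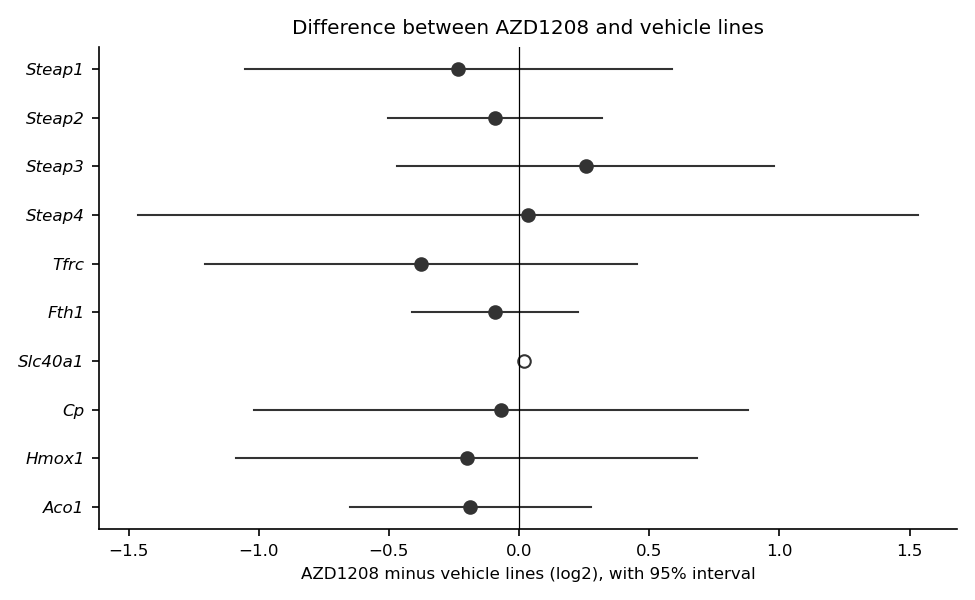
Mean of AZD1208 lines minus mean of vehicle lines (x axis, log2) for the 10 genes (y axis), n = 3 lines each; bars are 95% intervals from the limma fit, and the open point is Slc40a1, which was too dim to be fitted. Every interval includes 0, and Steap4 has the widest, from -1.46 to 1.53.

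Other genes of the same pathways were read from 12 lists written with these earlier results known, with 120 tested genes that are not members. None passed in either comparison (0 of 120). Of them 18 had all 6 lines above every parental array and 12 had all 6 below, which is 15% and 10%, beside 6.94% and 5.06% of all genes tested; since the lists were written with results known, nothing is read from that. Over all genes tested, 54.5% had a lower mean in recurrent lines than in the parental line, and 54.8% had a lower mean in AZD1208 lines than in vehicle lines. For each list the genes with the 2 highest and 2 lowest differences of recurrent lines against parental are the ones described. Lying above or below every parental array asks for no margin, and some lines did so by less than the technical SD. Itih4 was at 6.885 in AZD1208 3, against 6.888 on the lowest parental array (technical SD 0.18). Nubp1 was at 11.32 in Vehicle 1, against 11.33 (technical SD 0.17). Epas1 was at 6.894 in Vehicle 3, against 6.883 on the highest parental array (technical SD 0.13). Erfe was at 8.79 in Vehicle 2, against 8.82 on the lowest parental array (technical SD 0.13). Aifm2 was at 7.43 in Vehicle 2, against 7.49 (technical SD 0.12). Ncoa4 was at 8.08 in Vehicle 1 and Vehicle 2, against 8.01 on the highest parental array (technical SD 0.08). Hscb was at 7.74 in AZD1208 3, against 7.69 (technical SD 0.12). Slc31a2 was at 10.08 in AZD1208 3, against 9.95 (technical SD 0.18).

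Among 16 genes of iron uptake and transport, 9 had higher and 7 lower means in recurrent lines (median 0.04). Lrp1, the receptor that takes up haem bound to haemopexin, was at 10.26, 11.32 and 9.26 in AZD1208 lines and 10.69, 9.36 and 9.97 in vehicle lines, against 7.17, 7.11 and 7.08 on the parental arrays. All lines lay far above the parental arrays, and the mean was 8.13-fold higher (3.02, SE 0.71). Scara5, a scavenger receptor that binds ferritin, was 2.10-fold higher (1.07, SE 0.34), again in 6 of 6 lines. The zinc and iron importer Slc39a14 (-0.27, SE 0.25) and the endosomal sorting gene Snx3 (-0.24, SE 0.20) lay below every parental array in 6 of 6 lines.

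For iron storage, 4 of 6 genes had higher means (median 0.01). Ncoa4, the receptor that delivers ferritin to autophagy, was above every parental array in 6 of 6 lines at 8.17 ± 0.07 (SD, n = 6), against 7.94 in the parental line (0.23, SE 0.18). The mitochondrial ferritin Ftmt differed by 0.10 (SE 0.21), and the iron chaperone Pcbp1 by -0.27 (SE 0.31). Pcbp3 differed by -0.01 (SE 0.26).

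Export genes and the hepcidin axis had 3 higher and 7 lower means (median -0.10). Flvcr2 held the largest negative difference in any of the lists: this transporter, a relative of the haem exporter Flvcr1, was at 7.65, 8.80 and 8.25 in AZD1208 lines and 7.47, 8.67 and 8.51 in vehicle lines, against 10.22, 10.25 and 10.29 on the parental arrays. It was lower by 4.08-fold (-2.03, SE 0.52), in 6 of 6 lines. AZD1208 1 and Vehicle 1 were its lowest lines, as for Steap3 and Aco1. Erfe, the hormone erythroferrone that lowers hepcidin, was 1.45-fold lower (-0.54, SE 0.37) in 6 of 6 lines, and Flvcr1 itself differed by 0.05 (SE 0.35). Neo1, a co-receptor in hepcidin control, differed by 0.19 (SE 0.30).

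Regulators of the iron response had 4 of 6 means higher (median 0.16). Epas1, the hypoxia-inducible factor HIF-2α whose message iron regulatory protein 1 controls, was above every parental array in 6 of 6 lines (0.95, SE 0.67), with AZD1208 2 highest at 9.04. Hif1a differed by 0.29 (SE 0.42) and Nubp2, a cytosolic iron-sulfur assembly factor, by -0.19 (SE 0.23), while Rbck1, a ubiquitin ligase, was below every parental array in 6 of 6 lines (-0.49, SE 0.29).

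In haem synthesis 5 of 10 means were higher and 5 lower (median -0.003). Alad, which joins the first precursors into porphobilinogen, was at 12.30, 11.74 and 12.30 in AZD1208 lines and 12.07, 12.17 and 12.33 in vehicle lines, against 12.64, 12.50 and 12.66 on the parental arrays. It lay below the parental arrays in 6 of 6 lines (-0.45, SE 0.26), while Alas1, the first enzyme of the pathway, differed by -0.19 (SE 0.23). Cpox, a later enzyme, differed by 0.30 (SE 0.30), and Clpx, a mitochondrial unfoldase that activates and turns over the first enzyme, by 0.24 (SE 0.32). The 3 genes of haem breakdown beside Hmox1 were Hmox2 (-0.22, SE 0.31), Blvra (-0.13, SE 0.21) and Blvrb (0.26, SE 0.22).

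Among 17 genes of iron-sulfur cluster assembly, 3 had higher and 14 lower means in recurrent lines (median -0.07, against -0.02 for all genes, of which 54.5% had lower means). All 6 lines lay above every parental array for 3 of them and below for 1. Nubp1 was below every parental array in 6 of 6 lines (-0.56, SE 0.33), and Nfu1 differed by -0.20 (SE 0.23). The co-chaperone Hscb (0.52, SE 0.32) and the electron donor Fdx1 (0.45, SE 0.36) lay above every parental array in 6 of 6 lines. In the comparison of AZD1208 with vehicle lines 16 of these 17 genes had lower means in AZD1208 lines (median -0.12, against -0.02 for all genes, of which 54.8% had lower means), with 0 called.

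Defence against lipid peroxides, the damage that free iron promotes, had 5 of 12 means higher (median -0.06). Slc7a11, the cystine importer that feeds glutathione, was at 10.34, 10.62 and 9.88 in AZD1208 lines and 11.39, 11.12 and 10.52 in vehicle lines, against 9.09, 9.42 and 8.88 on the parental arrays. All lines lay above the parental arrays (1.52, SE 0.37; 2.86-fold). AZD1208 minus vehicle was -0.73 (SE 0.28), the groups overlapped with AZD1208 2 above Vehicle 3, and the gene did not pass (limma, adjusted p = 1). Gclm differed from the parental line by 0.42 (SE 0.37), Dhodh by -0.32 (SE 0.40) and the ubiquinone reductase Aifm2 by -0.37 (SE 0.26), the last lower in 6 of 6 lines.

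The other targets of NRF2, the factor that also drives Hmox1 and ferritin, had 3 of 9 means higher (median -0.04). Srxn1 was below every parental array in 6 of 6 lines (-0.45, SE 0.21) and Taldo1 differed by -0.36 (SE 0.28). Osgin1 differed by 0.13 (SE 0.26), and Ephx1 spread from 7.44 in AZD1208 3 to 11.11 in Vehicle 1 around a parental value of 9.18. All 9 had lower means in AZD1208 lines than in vehicle lines (median -0.13, 0 called), beside 54.8% of all genes tested and an all-gene median of -0.02.

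Copper, which Steap proteins reduce and Cp carries, had a list of 10 genes with 5 means higher (median 0.004). The copper pump Atp7a was at 10.12, 10.57 and 8.71 in AZD1208 lines and 10.71, 9.70 and 9.13 in vehicle lines, against 8.60, 8.84 and 8.12 on the parental arrays (1.30, SE 0.73; 2.47-fold). AZD1208 3 alone lay within the parental range. Slc31a2, an intracellular copper transporter, was above every parental array in 6 of 6 lines (0.90, SE 0.47), whereas the plasma membrane importer Slc31a1 was below in 5 (-0.30, SE 0.25). Sco1, which delivers copper to mitochondria, differed by -0.16 (SE 0.29).

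**Figure D4:**
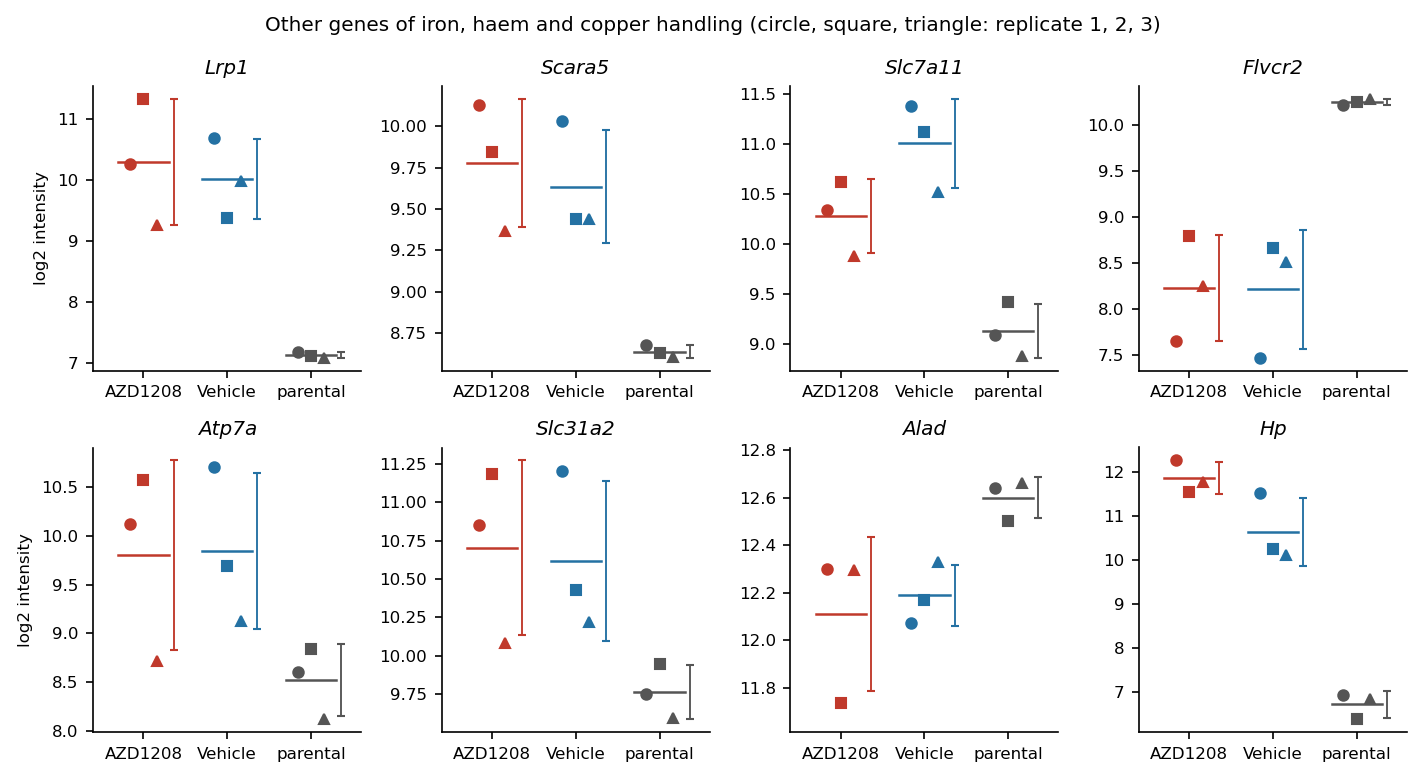
Log2 intensity (y axis, a separate range for each gene) of 8 other genes of iron, haem and copper handling in AZD1208 lines, vehicle lines and parental arrays; points are arrays, the symbol gives the replicate, horizontal lines are means and vertical bars the SD of 3 (technical for the parental line). Lrp1 lay at 9.26 to 11.32 in the lines and 7.08 to 7.17 on the parental arrays, and Flvcr2 at 7.47 to 8.80 in the lines and 10.22 to 10.29 on the parental arrays.

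Cp is also known as an acute phase gene, and Steap4 as a gene induced by inflammation and by androgens. Among 8 other acute phase genes tested, 6 had higher means in recurrent lines (median 0.83). Hp, the haemoglobin-binding protein haptoglobin, was 22.9-fold higher (4.52, SE 0.51), and Saa3, a serum amyloid, 9.41-fold higher (3.23, SE 1.49), each in 6 of 6 lines, while Orm1 (-1.34, SE 0.69) and Itih4 (-0.64, SE 0.30) lay below the parental arrays in 6 of 6. Saa3 stood at 8.97, 11.29 and 8.33 in AZD1208 lines and 11.13, 11.12 and 7.46 in vehicle lines, with AZD1208 3 and Vehicle 3 lowest. Hp had another order, with 12.26, 11.55 and 11.77 in AZD1208 lines and 11.52, 10.25 and 10.13 in vehicle lines, against 6.39 to 6.95 on the parental arrays, so that AZD1208 3 was its second highest line. In Orm1 Vehicle 3 was the second highest line, at 7.54. Of 13 other androgen-responsive genes 9 had higher means (median 0.53), with Slc38a4 at 2.37 (SE 0.96) and Mme at 2.07 (SE 0.82), and with Elovl5 at -0.23 (SE 0.34) and Tmprss2 at -0.09 (SE 0.28).

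Profiles near Steap4 were ranked by the root mean square difference over the 6 lines, each set relative to the parental mean. Some gene symbols were skipped. The nearest of those kept were Mxd4 (0.56), Lrp1 (0.58), Adgrf5 (0.70), Klhl24 (0.75) and Adh1 (0.79). Lrp1 thus belongs both to the iron list and to the nearest profiles. The measure rests on 6 lines that share 1 parental sample and is a description only.

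Markers of other cell types are given beside these results, since a line from a tumour could carry host cells; in bulk RNA fewer cells of a type and less RNA per cell cannot be told apart. The 10 macrophage markers averaged 5.96 to 6.38 in AZD1208 lines, 5.94 to 6.47 in vehicle lines and 5.99 to 6.06 on the parental arrays. Their pan-leukocyte marker Ptprc stood at 4.49 to 5.12 on all 9 arrays, among the dimmest 30% of genes, as did Lyz2, Mrc1 and Aif1. Lyz2 was nevertheless at 6.42 in AZD1208 2, 7.10 in Vehicle 1 and 6.97 in Vehicle 2, against 4.74 to 5.36 on the other arrays. Cd68 lay at 7.11 to 8.08 in the lines and 7.03 to 7.06 on the parental arrays. Adgre1 was at 6.22 in Vehicle 1 and 6.54 in Vehicle 2, against 5.38 to 5.81 on the other arrays. For Csf1r, Cd14, Cd163 and Tyrobp the lines and the parental arrays overlapped. The 10 fibroblast markers averaged 6.71 to 7.59 in AZD1208 lines, 6.67 to 6.90 in vehicle lines and 6.28 to 6.35 on the parental arrays, with Dcn, Lum and Fap among the dimmest 30%. Within that list Postn lay at 7.86 to 12.72 in the lines, AZD1208 2 highest, and at 5.17 to 5.55 on the parental arrays. Pdgfrb was at 9.78 in AZD1208 2, against 6.49 to 7.22 on the other arrays. Dcn was at 6.68 in AZD1208 2, against 5.22 to 5.83 on the other arrays. Lum lay at 4.40 to 4.84 and Fap at 4.69 to 5.06 over all 9 arrays. Pdgfra, singled out after its values were seen, was at 9.27, 9.84 and 8.24 in AZD1208 lines and 10.03, 9.06 and 8.47 in vehicle lines, against 7.44, 7.27 and 7.69 on the parental arrays, with Vehicle 1 highest and AZD1208 3 lowest, as in Steap4. The ranges of the collagen genes overlapped those of the parental arrays: Col1a1 lay at 7.06 to 7.47 in the lines and 7.29 to 7.42 on the parental arrays, Col1a2 at 6.68 to 7.26 in the lines and 7.04 to 7.16 on the parental arrays, and Col3a1 at 6.32 to 6.86 in the lines and 6.75 to 6.79 on the parental arrays. Thy1 lay at 6.82 to 7.62 in the lines and 7.24 to 7.40 on the parental arrays. Of the 10 erythroid markers 3 were measured, at averages of 6.56 to 6.85 in AZD1208 lines, 6.53 to 6.63 in vehicle lines and 6.76 to 6.85 on the parental arrays. Hepatocyte markers (6 of 7 measured) averaged 5.68 to 5.86 in AZD1208 lines, 5.74 to 5.87 in vehicle lines and 5.73 to 5.78 on the parental arrays, and Alb, Serpina1a and Hamp were among the dimmest 30%. Endothelial markers (6 of 6 measured) averaged 5.67 to 5.92 in AZD1208 lines, 5.68 to 5.84 in vehicle lines and 5.84 to 5.94 on the parental arrays, with Tek and Emcn among the dimmest 30%. The means of the basal markers (2 of 3 measured) were 6.85 in AZD1208 lines, 7.01 in vehicle lines and 7.07 in the parental line. The 6 luminal markers averaged 7.46 to 7.80 in AZD1208 lines, 7.44 to 7.75 in vehicle lines and 7.95 to 8.07 on the parental arrays, and among them Krt19 lay at 6.59 to 6.96 in the lines and at 8.26 to 8.32 on the parental arrays. The part of these markers in the Steap4 and Cp values was not tested.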

How the data were processed

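RNA of 9 arrays was measured. The authors deposited log2 intensity for every probe set on each array (range 1.94 to 14.4). They used oligo, per the submitters' processing notes; the version, and how background, normalization and summary were handled, are not stated in the sources used here. How firmly a value is known is limited by the number of arrays.

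Probe sets were named from the platform annotation (41345 in all, 23521 with 1 symbol, 1814 with several, 16010 not listed there); a check of Entrez identifiers updated 0 symbols. Per gene the probe set of highest mean was kept (22180 genes), and the dimmest 30% (below 5.81) were left out, leaving 15526. The 3 parental arrays were averaged, and 7 samples were fitted in limma 3.58.1 (R 4.3.3) by lmFit and eBayes, group as the only term (4 residual and 3.36 prior degrees of freedom), two-sided, with Benjamini-Hochberg adjustment over all genes and a threshold of 0.05. The lone parental sample is assumed to vary like the lines. P-values measure only the spread between these samples. Comparisons against parental all rest on that sample. The procedure was tested on simulated data.

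Same-numbered AZD1208 and vehicle lines deviated together from their group means, with correlations across genes of 0.15, 0.12 and 0.53, each over 0.1, so the numbers pair the lines by that rule alone; no label says so, and AZD1208 2 with Vehicle 1 gave 0.26. The fit without a block is the one reported.

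The members and lists were chosen with earlier results of these data known. All members were named, with the 2 highest and 2 lowest genes of each list by the difference of recurrent lines against parental. The 5 profiles nearest to Steap4 were named too. Symbols of predicted genes, olfactory receptors and small RNAs were skipped there by their letters. That also skipped every other gene whose symbol begins with Rn. Alternatives were quantile normalization, centring, other filters on dim genes, the mean of probe sets, array quality weights, parental arrays as 3 samples, a replicate block and leaving out each line.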

Additional observations from a re-analysis of the deposited data

How the results depend on the processing

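With the replicate number as a block, 0 genes were called for AZD1208 against vehicle lines, as without it (81 had an unadjusted p under 0.05), and 0 members; the block was run for that comparison alone and changed no call in it. No member passed in that comparison under any alternative run. Calls against the parental line appeared with its arrays counted as 3 samples, which takes technical for biological spread: 156 genes for both recurrent groups, 41 for AZD1208 lines and 53 for vehicle lines, with 6 genes of the pathway lists and 1 member, Steap4, a count that is no test of it since Steap4 helped to choose the set. Array quality weights gave 1 gene for both groups and 2 for AZD1208 lines, and leaving out single lines gave 0 to 1 for AZD1208 lines. Members with all lines above every parental array numbered 3 or 4. Steap4 ranged from 2.77 to 3.36 and Cp from 1.13 to 1.49 in recurrent lines against parental, and the sign turned for Hmox1 and Aco1.

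For AZD1208 minus vehicle, leaving out 1 line at a time gave -0.39 to 0.64 for Steap4, -0.50 to 0.23 for Cp, -0.59 to 0.069 for Hmox1, -0.54 to 0.052 for Steap1, -0.20 to 0.0072 for Steap2, 0.033 to 0.55 for Steap3 and -0.70 to 0.0061 for Tfrc. The sign of Steap4 turned without Vehicle 2 (-0.11), Vehicle 3 (-0.39), AZD1208 1 (-0.34) or AZD1208 2 (-0.19), that of Cp without Vehicle 1 (0.23), Vehicle 2 (0.064) or AZD1208 3 (0.14), and that of Hmox1 without Vehicle 3 (0.069) or AZD1208 1 (0.013). It turned without AZD1208 2 for Steap1, without Vehicle 2 for Steap2 and without AZD1208 3 for Tfrc. With array quality weights Steap2 (0.021), Steap3 (-0.22) and Tfrc (0.13) turned, and Steap4 was at 0.82. The cause was not tested. Slc40a1 was too dim to be tested.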

Other observations

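Of the 120 list genes tested, 8 had no overlap between AZD1208 and vehicle lines (6.67%, against 3.38% of all genes tested); they were chosen after their values were seen, and none passed (limma, adjusted p = 1 for each). Gpx4, the selenium enzyme that removes lipid peroxides, averaged 8.95 ± 0.07 over AZD1208 lines, against 8.74 ± 0.03 over vehicle lines (SD, n = 3 each; difference 0.20, SE 0.14). Isca1, an iron-sulfur assembly protein, averaged 8.77 ± 0.14 over AZD1208 lines, against 9.03 ± 0.12 over vehicle lines (difference -0.27, SE 0.15). The iron chaperone genes Pcbp2 and Pcbp4 went opposite ways, with Pcbp2 at 13.39 in AZD1208 lines against 13.29 in vehicle lines, and Pcbp4 at 10.94 in AZD1208 lines against 11.17 in vehicle lines. Hp differed by 1.23 (SE 0.39), Orm2 by 0.26 (SE 0.15), Alox15 by 0.19 (SE 0.16) and Fkbp5 by -0.25 (SE 0.15). The groups of Hp were parted only narrowly, with AZD1208 2 at 11.55 and Vehicle 1 at 11.52, against a technical SD of 0.30.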
